A study of Homo sapiens with 28 samples.

Results

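The Fc receptor-like (FCRL) family comprises 8 genes on the long arm of chromosome 1, out of 19821 protein-coding genes of chromosomes 1 to 22 and X for which peaks were examined. The members are FCRL1, FCRL2, FCRL3, FCRL4, FCRL5, FCRL6, FCRLA and FCRLB, taken by RefSeq symbol, and all 8 were found and are longer than 2 kb. FCRL5, FCRL4, FCRL3, FCRL2 and FCRL1 stand in that order as a run (GRCh38 chromosome 1, 157513377 to 157820120), all on the minus strand. FCRL6 lies apart from it (159800512 to 159816257), and FCRLA (161707229 to 161714352) and FCRLB (161721544 to 161728143) are neighbours on the plus strand, beside the Fc gamma receptor gene FCGR2B. The family was chosen by the H3K36me2 coverage of FCRLA and FCRL1, which these same peak lists had already shown to differ widely between conditions. Every value here is therefore a description, and none is tested.

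FCRL proteins are immunoglobulin-superfamily relatives of the Fc receptors, carried mainly by B cells, where the surface members tune signals from the B cell antigen receptor through tyrosine motifs in their tails. FCRL1 is an activating co-receptor, FCRL2 to FCRL5 carry inhibitory motifs, FCRL6 is found on cytotoxic T cells and NK cells, and FCRLA and FCRLB stay inside the cell. FCRL5 is retained on plasma cells and is a target in myeloma therapy. H3K36me2 is the mark that NSD2 writes, H3K27me3 is the Polycomb mark of silenced genes, and H3K27ac marks active promoters and enhancers.

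The marks were mapped by ChIPmentation, in which a transposase adds the sequencing adapters to immunoprecipitated chromatin, in TKO cells, labelled as plasma cells of genotype KMS-11 WHSC1(+/-). KMS-11 is a myeloma line, WHSC1 is an older name of NSD2, and every sample of all 4 conditions carries this same label. The conditions are TKO cells as such (TKO), TKO cells expressing wild type NSD2 (WT), and TKO cells expressing the NSD2 exchanges D1240A or F1295A, to ask how mutant NSD2 may alter chromatin marks. Each of 4 conditions and 3 marks had 2 replicates, which with 4 inputs makes 28 samples. The deposited peak lists, 12 in all, were each called on both replicates together without an input, so no replicate error exists for any value below. They rest on 31097592 to 73613753 fragments kept after removal of duplicates. At gene ends, H3K27ac peaks were listed in every condition for 6 of 8 plasma cell markers, XBP1, PRDM1, IRF4 and TNFRSF17 among them. SDC1 and CD38 had none within 1 kb of their outermost annotated ends. Of 7 B cell markers 2 or 3 had such a peak, and PAX5, MS4A1 and CD22 were among those with none in any list. Of 6 T cell and NK cell markers 1 or 2 had such a peak, and of 6 myeloid markers 2 did, with none at CD14, CSF1R, LYZ or ITGAM. The lists hold no expression value and do not check the level of NSD2.

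The stretches before the starts of FCRL5, FCRL2, FCRL1 and FCRLA are shown because these 4 of the 8 members share a short box in the sense ACTTCCT, the reverse complement of AGGAAGT, which is a form of the site of ETS factors such as PU.1. Each line gives the 120 bases before the RefSeq start (GRCh38.p14), written 5′ to 3′ on the strand of the gene, with the box in capitals. The positions are chr1:157552516-157552635 for FCRL5, chr1:157777133-157777252 for FCRL2, chr1:157820121-157820240 for FCRL1 (all minus strand) and chr1:161707109-161707228 for FCRLA (plus strand).
FCRL5: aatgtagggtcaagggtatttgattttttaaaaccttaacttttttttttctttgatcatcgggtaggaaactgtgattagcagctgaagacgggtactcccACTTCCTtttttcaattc
FCRL2: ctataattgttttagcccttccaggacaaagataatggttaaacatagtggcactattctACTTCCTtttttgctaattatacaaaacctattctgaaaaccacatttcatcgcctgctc
FCRL1: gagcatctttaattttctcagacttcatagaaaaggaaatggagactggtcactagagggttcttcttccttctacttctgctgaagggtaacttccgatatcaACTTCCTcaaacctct
FCRLA: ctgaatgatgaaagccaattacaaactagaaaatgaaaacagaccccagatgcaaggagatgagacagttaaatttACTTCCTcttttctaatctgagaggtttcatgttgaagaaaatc
The box begins 18 bases before the start in FCRL5, 16 in FCRL1, 44 in FCRLA and 60 in FCRL2. On either strand, AGGAAGT occurs in the 250 bases before the start at 7.1% of 27305 RefSeq starts, 1 per gene. It was searched for after these sequences had been seen, and related genes can share bases by descent. Only the first listed start of each gene was counted, and further starts of FCRL6 and FCRLB held AGGAAGT and an ETS and IRF composite site (FCRL6) and TGANTCA (FCRLB). The AP-1 site TGANTCA was found before the starts of FCRL1, FCRL2, FCRL3 and FCRL4, against 6.6% of all genes. An octamer, ATTTGCAT, stood before FCRLB alone (1.66% of all genes), and a paired site of IRF factors before FCRL1 and FCRLA (3.07%). TGCTGA, the core of the site of MAF factors, stood before FCRL1 and FCRLA (14.1%). No member held a site of EBF1 (1.08% of all genes), a composite site of ETS and IRF factors (2.44%), the E box CAGGTG (17.5%) or the TATA box TATAAA (11.1%). None of these matches shows binding.

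**Figure D1:**
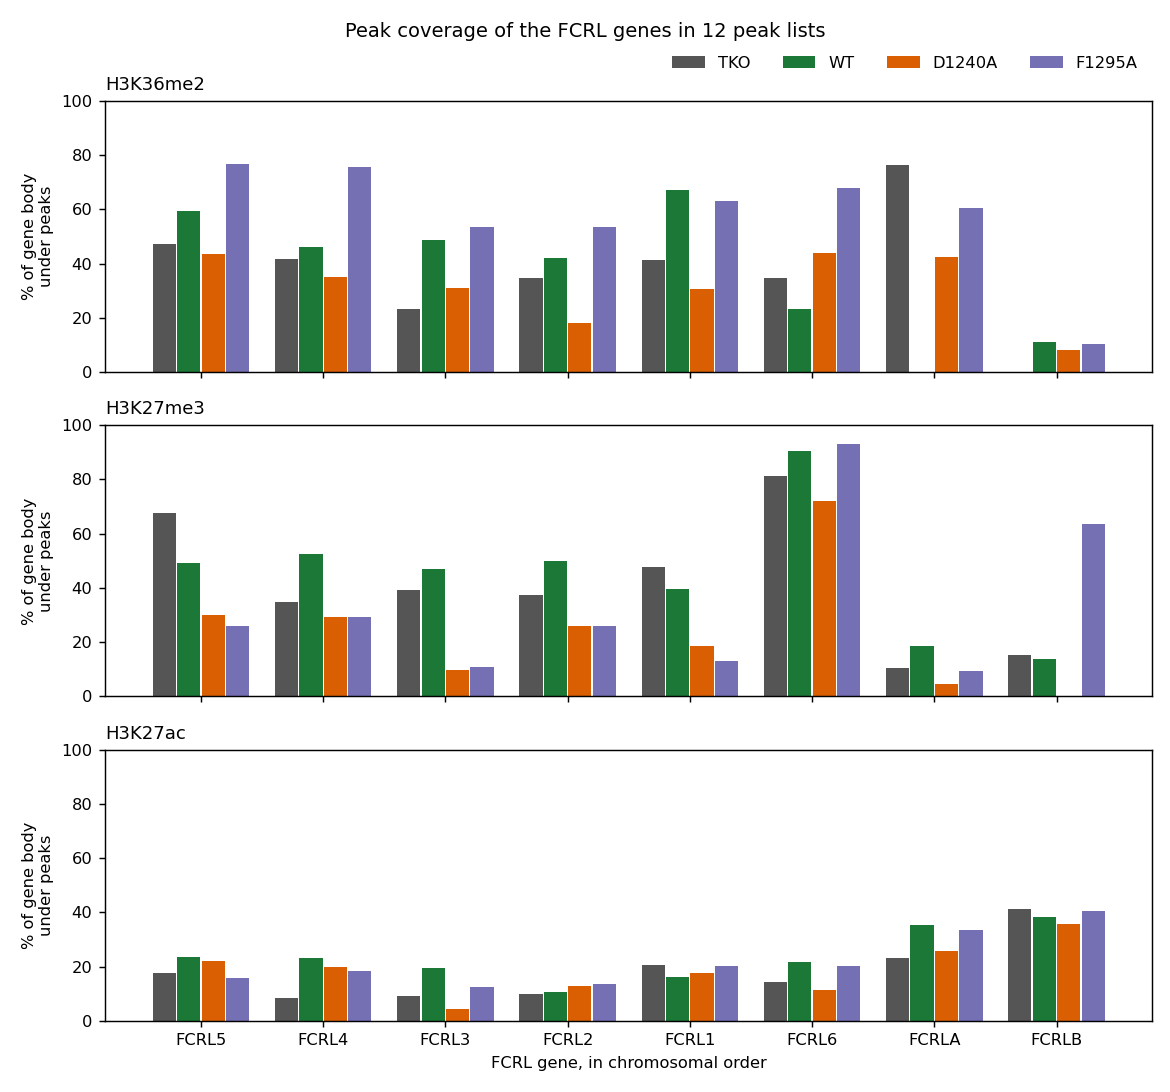
Percent of each FCRL gene body (y axis) under peaks of H3K36me2, H3K27me3 and H3K27ac in the 4 conditions (bars, 1 pooled list each, no error). FCRLA has no H3K36me2 bar in WT, and the 5 genes of the run have lower H3K27me3 bars in D1240A and F1295A than in TKO and WT.

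H3K36me2 over FCRLA, whose product binds immunoglobulin inside the cell, was listed in 3 conditions and not in WT. The percent of the gene body under H3K36me2 peaks, with peaks less than 1 kb apart joined, was 76.4% (TKO), 0.0% (WT), 42.4% (D1240A) and 60.4% (F1295A). The TKO list held 5 peaks over the gene with pileups of 24, 23, 18, 20 and 18 fragments at their summits, the D1240A list 3 with 26, 21 and 19, and the F1295A list 5 with 17 to 23. The WT list stopped short of the gene, with its nearest peak 223 bp away at a pileup of 18. Each H3K36me2 list admits peaks from 14 fragments upward, so the WT level over FCRLA lay under the limit of listing and is not a measured 0. Without joining of peaks the percentages were 49.6% (TKO), 0.0% (WT), 30.7% (D1240A) and 33.2% (F1295A). The other marks varied less over this gene, with H3K27me3 at 4.5% to 18.7% and H3K27ac at 23% to 35.4%.

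FCRLB, the neighbour of FCRLA and likewise an intracellular member, had little H3K36me2 in any list. Its body was covered over 0.0% (TKO), 11.2% (WT), 8.0% (D1240A) and 10.3% (F1295A). H3K27me3 over FCRLB was 15.3% (TKO), 13.7% (WT), 0.0% (D1240A) and 63.5% (F1295A). The F1295A value rests on 4 peaks of 11 to 15 fragments, near the list minimum of 10, with gaps of less than 1 kb between some of them, and it was 39.7% without joining. Between FCRLA and FCRLB, over 7.19 kb, H3K27me3 covered 84.0% (TKO), 74.2% (WT), 44.8% (D1240A) and 54.9% (F1295A).

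**Figure D2:**
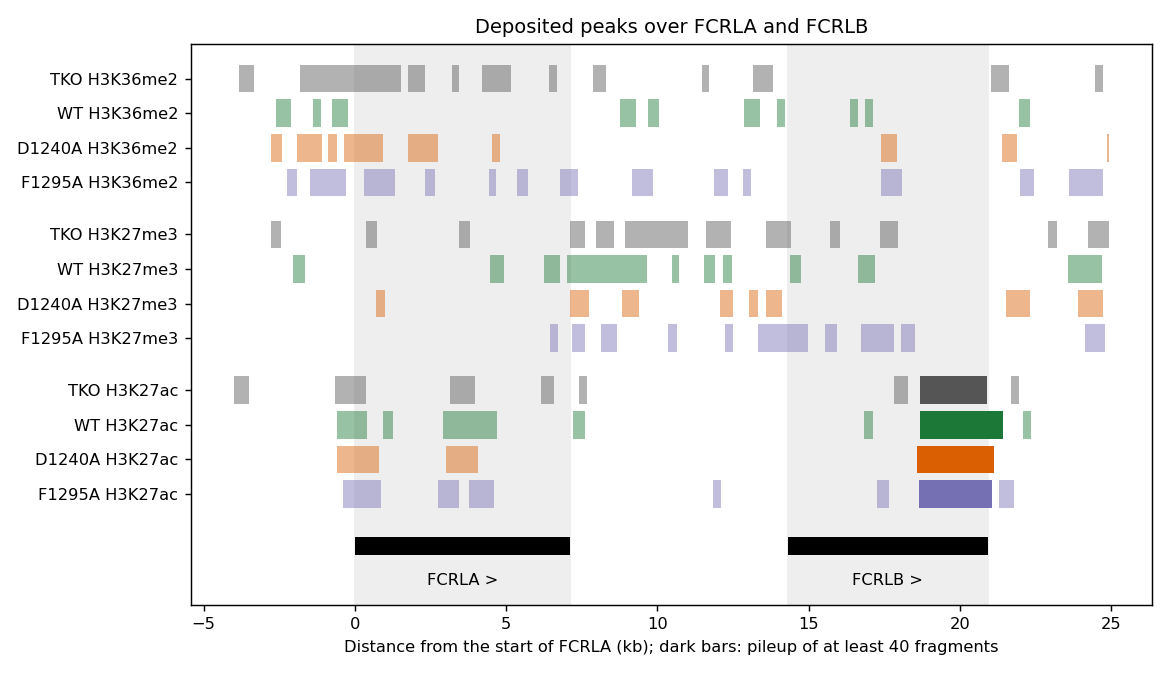
Deposited peaks of the 12 lists over FCRLA and FCRLB and 4 kb on either side, by distance from the FCRLA start (x axis, kb), with dark bars for pileups of at least 40 fragments. The WT H3K36me2 row is empty over FCRLA, and a strong H3K27ac peak lies at the end of FCRLB in all 4 conditions.

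Over the run from FCRL5 to FCRL1, H3K36me2 was broader in F1295A and WT than in TKO and D1240A. The order of F1295A and WT depended on the extent of the lists, which cover 94.34 Mb of the genome in F1295A and 72.98 Mb in WT, and at equal covered length WT was the broader in all 5 genes. Of the bases of these 5 genes, H3K36me2 peaks covered 38.5% (TKO), 53.0% (WT), 32.2% (D1240A) and 65.1% (F1295A). The same order held in the 4 parts between the genes, pooled, with 27.6% (TKO), 42.9% (WT), 23.4% (D1240A) and 55.1% (F1295A). WT was above TKO and D1240A below WT in each of the 5 genes and 4 parts.

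FCRL1, the activating member, was covered by H3K36me2 over 41.2% (TKO), 67.3% (WT), 30.5% (D1240A) and 63.0% (F1295A). FCRL3, a receptor of secretory IgA with both activating and inhibitory motifs, stood at 23.3% (TKO), 48.5% (WT), 31.0% (D1240A) and 53.7% (F1295A). WT and F1295A were the 2 highest lists for both genes. FCRL5, a receptor of IgG, reached 47.1% (TKO), 59.4% (WT), 43.6% (D1240A) and 76.6% (F1295A). FCRL4, an IgA receptor of memory B cells in mucosal tissue, reached 41.8% (TKO), 46.2% (WT), 34.9% (D1240A) and 75.5% (F1295A). FCRL2, an inhibitory member of memory B cells, was the least covered in D1240A, at 18.3%, against 34.8% in TKO, 41.9% in WT and 53.6% in F1295A. FCRL6, which binds MHC class II molecules, did not follow the run, with 34.8% (TKO), 23.1% (WT), 43.8% (D1240A) and 68.0% (F1295A). F1295A was the highest list for 5 of 8 members and D1240A the lowest for 4. By median over the genes of the shared 1q blocks described below, F1295A was also the highest list (92.7%), and WT was the lowest (67.4%).

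In WT against TKO, 6 of 8 members were covered more by H3K36me2 and 2 less, with a median difference of 9.15 percentage points. Among 312 genes of at least 2 kb in the shared blocks of 1q, 79 were covered more and 223 less, with a median of -9.88 points. Shared blocks are 1 Mb stretches with at least 10% of their bases under the peaks of every one of the 12 lists, and 7 of the 8 members lie in such a block. FCRL6 does not, its block being covered over 8.75% in the TKO H3K27ac list. Only 93 of 3043 blocks are shared, and 312 of the 489 genes of at least 2 kb in them lie on 1q. Median H3K36me2 coverage of these 1q genes was 85.95% (TKO), 67.4% (WT), 77.9% (D1240A) and 92.7% (F1295A), against 0.0% over all genes. Broad coverage is thus common to genes of these blocks. No input or local background entered the lists, so a raised local background there was not taken out. A gene was called at a difference of at least 25 points. FCRL1 and FCRL3 were called higher in WT, where the background is 0.167% of all 18611 genes of at least 2 kb and 4.81% of those in the 1q blocks. FCRLA was called lower, where the background is 2.47% of all genes and 23.1% in the 1q blocks. The family was chosen by FCRL1 and FCRLA in these lists, so for these genes the shares lend no support. FCRL3 passed by a narrow margin, with 25.2 points. Without joining of peaks FCRLA alone passed, where 1.58% of all genes were lower. For equal covered length, each list of the mark was cut to its highest peaks. FCRL5, FCRL4, FCRL3 and FCRL1 were then called higher (0.419% of all genes) and FCRLA lower (0.967%).

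In D1240A against WT, 6 members were covered less by H3K36me2 and 2 more, with a median difference of -13.6 points, against 4.30 points over the 1q genes. Of those 312 genes, 103 were covered less and 198 more. FCRL1 was called lower, at backgrounds of 0.145% and 3.21%, and FCRLA higher, at 0.876% and 14.4%. Both are the genes by which the family was chosen, so here too the shares lend no support. At equal covered length all 5 genes of the run were called lower, where 0.193% of all genes were, and FCRLA higher (0.623%). Without joining of peaks FCRL1 differed by -16.6 points and was not called, and with joining within 3 kb FCRL4 turned to 23.5 and FCRL3 to 4.98 points. In F1295A against WT, 6 members were covered more and 2 less, with a median of 14.4 points, against 18.6 over the 1q genes. Of those 312 genes, 283 were covered more and 18 less, so the members' direction is that of most genes there. FCRL4, FCRL6 and FCRLA were called higher, at backgrounds of 2.19% and 35.9%, so 3 of 8 is close to the share in the 1q blocks. No member was called lower, at 0.0484% and 0.321%. At equal covered length FCRLA alone was called, with 27.2 points (0.967% of all genes higher), and FCRL6 stood at 11.7. All 5 genes of the run were then covered less in F1295A than in WT, by differences of -0.54 (FCRL5), -3.76 (FCRL4), -22.2 (FCRL3), -8.03 (FCRL2) and -11.99 (FCRL1) points. The gain in the 4 run genes that were higher thus turned round in each. Both comparisons use the WT list, which also enters the comparison with TKO.

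**Figure D3:**
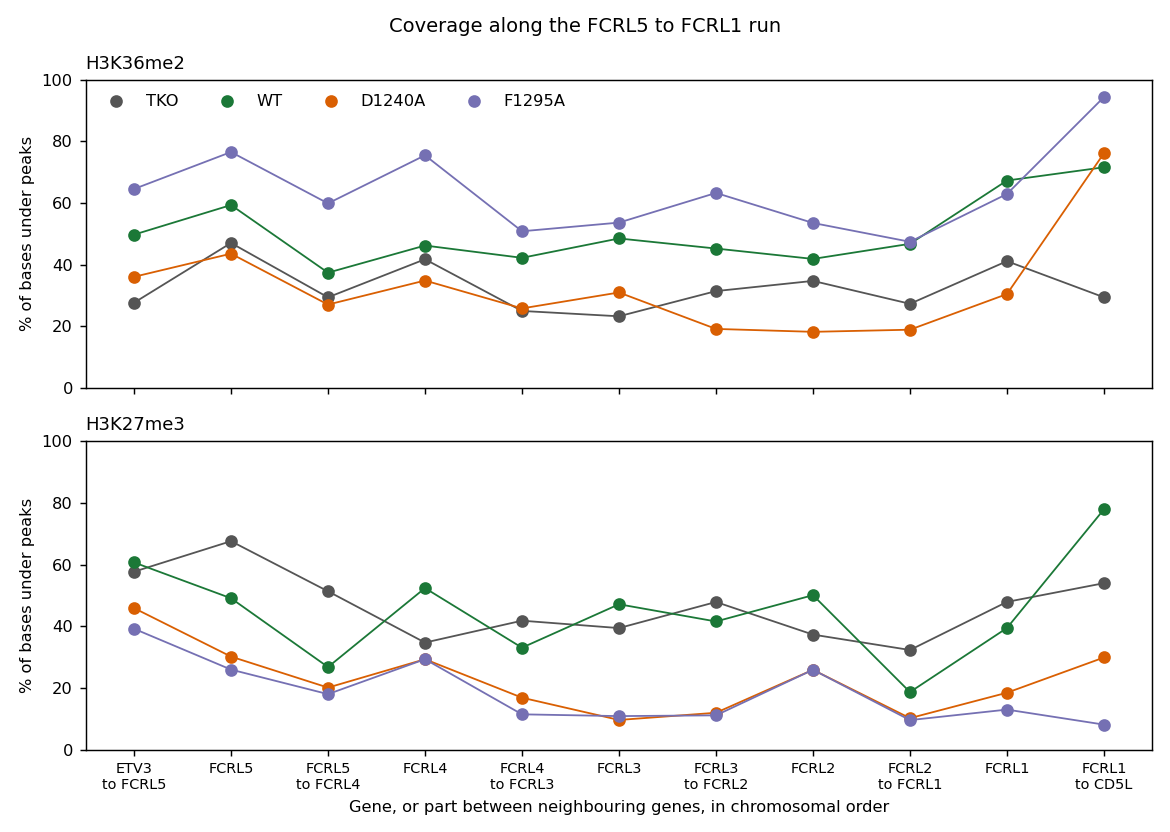
Percent of bases under H3K36me2 (top) and H3K27me3 (bottom) peaks in each gene of the run and in each part between neighbours (x axis, chromosomal order), 1 point per condition, with lines to guide the eye. F1295A and WT lie above TKO and D1240A for H3K36me2 from FCRL5 to FCRL1, and TKO and WT lie above the other conditions for H3K27me3.

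In the lists as deposited, H3K27me3 over the run was lower in D1240A and F1295A than in the other conditions, but at equal covered length FCRL2 and FCRL4 were not. Of the bases of the 5 genes it covered 47.3% (TKO), 47.8% (WT), 23.5% (D1240A) and 21.7% (F1295A). In the parts between them it covered 43.7% (TKO), 33.0% (WT), 15.2% (D1240A) and 12% (F1295A). The lists of the mutant forms rest on fewer fragments, 33219802 for D1240A and 31097592 for F1295A, against 41788534 for TKO and 44812488 for WT. The genes of the 1q blocks had lower medians in the mutant forms as well, at 41.0% (TKO), 38.8% (WT), 23% (D1240A) and 24.8% (F1295A). The part of depth in this difference was not tested.

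FCRL5 and FCRL3 had the widest spreads in H3K27me3 among the 5. FCRL5 stood at 67.6% (TKO), 49.1% (WT), 30.2% (D1240A) and 25.9% (F1295A). FCRL3 stood at 39.4% (TKO), 47.1% (WT), 9.6% (D1240A) and 10.9% (F1295A), with both mutant forms far below the others. FCRL1 had 47.9% (TKO), 39.4% (WT), 18.4% (D1240A) and 13.0% (F1295A). FCRL2 and FCRL4 were highest in WT, at 50.1% and 52.4%, and stood at 25.9% and 29.3% in both mutant forms. FCRL6, normally a gene of cytotoxic lymphocytes, had the broadest H3K27me3 of the family in every list, with 81.4% (TKO), 90.3% (WT), 72.2% (D1240A) and 93.0% (F1295A). Its flanks were covered as well, the part towards SLAMF8 over 64.5% to 100% and the part towards DUSP23 over 59.5% to 100%.

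No member was called for H3K27me3 in WT against TKO, where 0.285% of all genes were higher and 0.199% lower, and 4.49% and 6.73% in the 1q blocks. The members' median was 8.05 points, against -1.60 in the 1q blocks. In D1240A against WT all 8 members were covered less, with a median of -20.0 points against -8.19 over the 1q genes. Of the 312 genes of the 1q blocks, 245 were covered less and 54 more. At equal covered length 3 of the 8 turned, FCRL2 to 12.05, FCRLA to 2.91 and FCRL4 to 0.47 points, and the others lay between -1.56 and -8.50. FCRL3 was called lower, at backgrounds of 0.639% and 16.7%, and no member higher, at 0.0376% and 1.6%. In F1295A against WT 6 members were covered less and 2 more, with a median of -23.1 points against -10.6. Of the 312 genes of the 1q blocks, 246 were covered less and 52 more, so 6 of 8 is close to the share there. FCRL3 and FCRL1 were called lower, at 0.5% and 14.1%, and FCRLB higher, at 0.0537% and 1.28%. At equal covered length FCRL3 differed from WT by -5.32 points in D1240A and -6.31 in F1295A, and FCRL2 in F1295A by 12.1. FCRLB was then the only member called in F1295A, where 0.14% of all genes were higher. Its 49.8 points became 9.85 with a -log10 q of at least 5 and 20.0 with joining within 3 kb, below the limit.

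**Figure D4:**
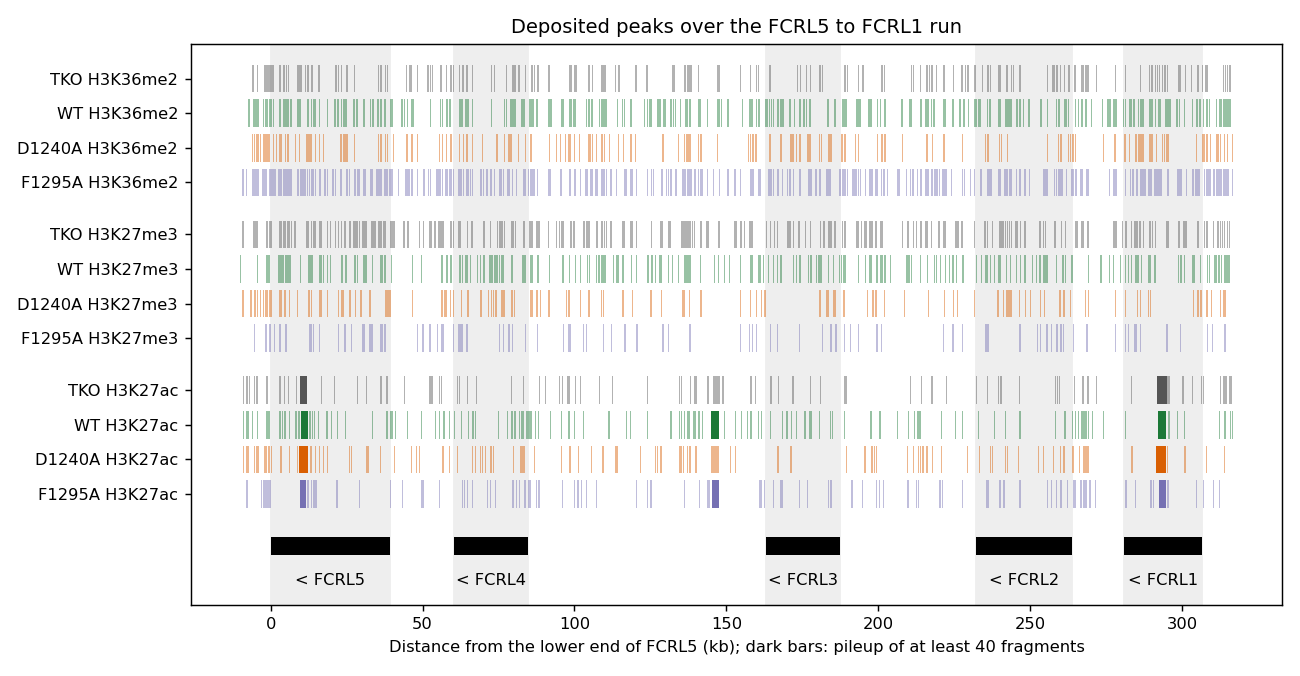
Deposited peaks of the 12 lists over the run from FCRL5 to FCRL1 and 10 kb on either side, by distance from the lower end of FCRL5 (x axis, kb), with dark bars for pileups of at least 40 fragments. Short pale peaks of all marks cover the run, and dark H3K27ac bars stand in FCRL5, between FCRL4 and FCRL3, and in FCRL1.

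The coverage over the family was made of many short and low peaks. The H3K36me2 lists held 77 to 99 peaks over the members, with medians of 19 to 21 fragments and a highest value of 36. For H3K27me3 there were 62 to 95 peaks, with medians of 14 to 17 fragments. Of the members' H3K36me2 peaks 91.9% to 98.8% were no more than 2 times the list minimum, against 74.9% to 85.0% of all peaks. Most peaks over these genes thus lay near the limit of listing.

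H3K27ac was weak at the starts of the FCRL genes and strong at a few places away from them. FCRLA was the only member whose start lay under an H3K27ac peak in all 4 lists, with pileups of 20 (TKO), 23 (WT), 23 (D1240A) and 29 (F1295A). The FCRL4 start lay under a peak in WT, of 30 fragments, and in F1295A, of 22, while the nearest peak was 1189 bp away in TKO and 1063 bp away in D1240A. FCRL6 had peaks of 14 to 26 fragments within 1 kb of its start. At FCRL2 they had 15 to 20 fragments. FCRL5 had peaks of 21 to 23 fragments within 1 kb of its start in TKO, WT and F1295A and none in D1240A. FCRL1 had 18 fragments in TKO and F1295A, and none in WT, where the nearest peak was 5526 bp away, or in D1240A. No list had an H3K27ac peak within 1 kb of the outermost annotated start of FCRL3 or FCRLB. The FCRL3 start used for the sequence sites, 157700769, lies inside the outermost one, 157700956. A WT peak of 16 fragments lay within 1 kb of that inner start.

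By presence of a peak within 1 kb of either gene end, the members marked were 7 (TKO), 7 (WT), 6 (D1240A) and 8 (F1295A), against 57.9% to 59.1% of all genes. No member was gained or lost in WT against TKO, where 1.53% of all genes were gained and 1.82% lost. FCRL1 was lost in D1240A against WT (background 1.02% lost, 2.17% gained), and FCRL3 was gained in F1295A against WT (1.81% gained, 1.12% lost). The FCRL1 peak in WT had 23 fragments and the FCRL3 peak in F1295A had 17, both at the far end of the gene. With windows of 2.5 kb neither was called. The gain of FCRL3 also rests on its outermost start, since WT had a peak within 1 kb of the inner start. In WT against TKO, FCRL4, FCRL2 and FCRL1 were gained at equal covered length, where 2.34% of all genes were. With a -log10 q of at least 5, FCRL4, FCRL1 and FCRLA were gained (1.28% of all genes). In F1295A the gain of FCRL3 was absent in both of these settings and FCRL1 was lost. FCRL2 was lost as well at equal covered length. The shares of all genes lost in F1295A were 2.01% at equal covered length and 0.843% with the stricter q. In D1240A against WT, FCRL4, FCRL2, FCRL1 and FCRL6 were lost at equal covered length (1.45% of all genes). With the stricter q, FCRL5, FCRL4, FCRL1 and FCRL6 were lost (0.878%). With 50% of an end window covered, FCRL5, FCRL4 and FCRL6 were lost in D1240A (0.843%), and FCRL1 was not. The same genes were gained there in WT against TKO (1.2%).

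Strong H3K27ac elements, with at least 40 fragments in 1 or more lists, were found at 4 places in and beside the members, and each was listed in all 4 conditions. Scaled per 1000000 fragments kept, WT was the highest list at all 4. Inside FCRL1, 13.4 kb from its start (157804906 to 157808329), the pileup was 89 (TKO), 145 (WT), 96 (D1240A) and 87 (F1295A). This is 1.216, 1.97, 1.41 and 1.27 per 1000000, and the exact Poisson 95% interval of WT, 1.66 to 2.32, overlaps that of D1240A, 1.15 to 1.73, and lies above those of TKO, 0.977 to 1.497, and F1295A, 1.02 to 1.57. These intervals cover counting error alone. WT was 1.62 times TKO (exact binomial 95% interval 1.24 to 2.13).

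Inside FCRL5, 28.3 kb from its start (157521487 to 157526094), the pileup was 50 (TKO), 76 (WT), 54 (D1240A) and 50 (F1295A). WT was 1.51 times TKO there, with an interval of 1.04 to 2.204. In the noncoding RNA gene LOC105371457, between FCRL4 and FCRL3 (157658337 to 157661184), it was 31 (TKO), 61 (WT), 31 (D1240A) and 41 (F1295A), with WT at 1.96 times TKO (1.25 to 3.12). That element was included for its WT and F1295A values alone. At the end of FCRLB (161725796 to 161729185) the pileup was 91 (TKO), 124 (WT), 109 (D1240A) and 102 (F1295A). Here WT was 1.35 times TKO (1.03 to 1.80) and the intervals of all 4 lists overlapped.

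**Figure D5:**
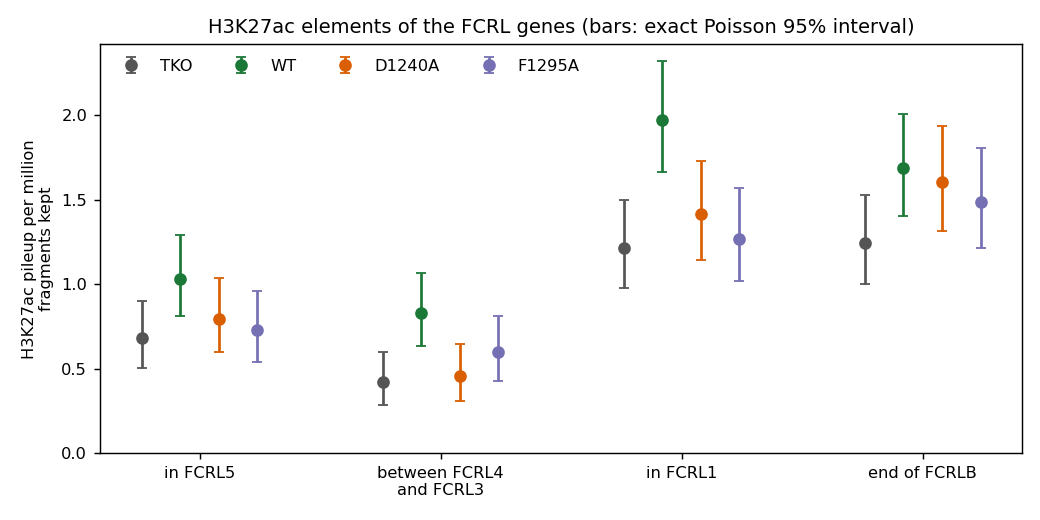
H3K27ac pileup per 1000000 fragments kept (y axis) at the 4 strong elements of the FCRL genes, 1 point per condition, with exact Poisson 95% intervals as bars. The WT point is the highest at each element, at 1.97 in FCRL1 and 0.829 between FCRL4 and FCRL3.

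The same measure was taken at 28023 elements of the genome listed in all 4 conditions with at least 40 fragments in any. Their median ratio of WT to TKO was 0.916, a shift of -0.13 on the log2 scale, so the elements of the FCRL genes were higher in WT against a background that was lower. WT was at least 1.5 times TKO at 3.47% of them and at 3.6% of the 417 in the 1q blocks, and at 3 of the 4 FCRL elements. Among these 3, LOC105371457 reached 40 fragments in WT and F1295A alone, so its ratios here and below are description only. WT was at most 1 over 1.5 of TKO at 7.34% of all elements and at no FCRL element. WT was the highest of the 4 lists at 13.3% of all elements and 19.4% in the 1q blocks. It exceeded the next list by at least 1.3 times in FCRL1 (1.39) and LOC105371457 (1.39) but not in FCRL5 (1.299) or at FCRLB (1.05), against 1.94% of all elements and 3.12% in the 1q blocks. Divided by the median of all elements, WT over TKO was 1.77 in FCRL1, 1.65 in FCRL5, 2.13 in LOC105371457 and 1.48 at FCRLB. D1240A over WT was 0.717 in FCRL1 (0.548 to 0.935) and 0.551 in LOC105371457 (0.345 to 0.862), with intervals below 1, and 0.77 in FCRL5 and 0.952 at FCRLB, with intervals that include 1. A ratio of at most 1 over 1.5 was found at 2.31% of all elements and in LOC105371457, and a ratio of at least 1.5 at 8.49% and at no FCRL element. F1295A over WT was 0.644 in FCRL1 (0.488 to 0.846), which passed the lower limit at a background of 2.13% (4.95% passed the upper), 0.707 in FCRL5 (0.484 to 1.02), 0.722 in LOC105371457 (0.474 to 1.09) and 0.883 at FCRLB (0.673 to 1.16).

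Genes whose products work with the FCRL proteins were counted against the same shares of all genes. The 24 genes of B cell receptor signalling include the kinases SYK and LYN and the phosphatase genes PTPN6 and PTPN11. Of these, FCGR2B alone was called higher for H3K36me2 in WT against TKO (0.167% of all genes, 4.81% in the 1q blocks, where it lies). None was called for H3K27me3 in any comparison. FCGR2B, the inhibitory Fc gamma receptor gene next to FCRLA, was covered over 21.8% (TKO), 60.5% (WT), 38.2% (D1240A) and 45.4% (F1295A), the reverse of FCRLA in TKO and WT. At gene ends, H3K27ac at PIK3CD was lost in WT against TKO and gained in D1240A. In both mutant forms CD79A was gained and CR2 was lost, against the shares of 1.02% to 2.17% given above. Of the SLAM genes, SLAMF9 was lost in WT against TKO. Of 6 genes for ligands and their carriers, JCHAIN, the joining chain of polymeric IgA, was called lower in WT for H3K36me2 (2.47% of all genes), with 58.7% (TKO), 2.9% (WT), 19.7% (D1240A) and 17.6% (F1295A). None of 10 transcription factor genes of B cells was called for any mark, and with the highest share in either direction at 2.47% of all genes this count says little.

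The families set beside the FCRL genes are the Fc receptors and the SLAM receptors, taken by family and not by position. The Fc receptor list includes FCER2 and FCGRT, so its medians are not limited to neighbours of the FCRL genes. The difference between families was not tested. For H3K36me2 in WT against TKO the median difference was 12.7 points over 9 SLAM genes and 0.0 over 9 Fc receptor genes, against 9.15 over the FCRL genes. In F1295A against WT, SLAMF8, SLAMF9 and CD244 were called higher, which is 3 of 9 and near the 35.9% of the 1q blocks (2.19% of all genes). In D1240A against WT, CD84 was called lower for H3K36me2 (3.21% in the 1q blocks), and for H3K27me3 SLAMF1 and FCGR3A were (16.7%). For H3K27me3 in F1295A against WT the SLAM median was -19.3 points, with SLAMF6 and CD48 called lower, and the Fc receptor median was -8.00, with FCGR3B called lower (14.1% in the 1q blocks). Of the genes that flank the members, ETV3, a repressor of the ETS family, was called lower in WT against TKO for H3K36me2, from 95.9% to 62.4%. The share is 2.47% of all genes and 23.1% in the 1q blocks. In F1295A against WT, 3 of 5 flanking genes, ETV3, CD5L and SLAMF8, were called higher for H3K36me2 (2.19% and 35.9%). DUSP12, the flanking gene beyond FCRLB, was not called, at 25.7%, 15.7%, 3.8% and 7.1% in the same order of conditions as above. CD5L, which encodes a secreted macrophage protein, had 50.5% (TKO), 48.6% (WT), 49.7% (D1240A) and 86.0% (F1295A).

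The gene nearest to each member over the 12 percentages of gene body covered, by Euclidean distance in points, was named for the 7 members whose H3K36me2 spans at least 25 points. It was RASA4B for FCRLA (31.3 points), CD5L for FCRL5 (31.5), KCNJ9 for FCRL4 (23.4), OR10J1 for FCRL3 (28.1), SORT1 for FCRL2 (21.8), OR6P1 for FCRL1 (42.8) and SV2A for FCRL6 (34.6). Of the 489 genes of at least 2 kb in the shared blocks of the genome, 312 lie on 1q. Of the 21 entries formed by the 3 nearest genes of each member, 16 lie on chromosome 1. FCRLA stands apart in this, with RASA4B, RASA4 and HILPDA, all on chromosome 7. HILPDA, a lipid droplet gene, was covered by H3K36me2 over 72.6% (TKO), 0.0% (WT), 44.0% (D1240A) and 47.9% (F1295A). RASA4 and RASA4B are near-identical copies, between which reads cannot be placed with certainty.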

How the data were processed

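Peaks of H3K36me2, H3K27me3 and H3K27ac were examined over 8 FCRL genes. Per the submitters' processing notes, the tools were Bowtie2 2.4.5, Trimmomatic 0.36, MACS2 2.2.7.1 and FastQC 0.11.4, with the build GRCh38. Per the file headers, the authors called each list on both replicates together, with a q limit of 0.05, 1 fragment kept per position, and neither a control nor a local background. The deposited pileup signal is the number of fragments over the summit, unscaled. The deposited fold enrichment is a ratio to 1 background per file, and the deposited -log10 q values refer to the same background. Duplicates were 61% to 87% of fragments, per the file headers.

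Gene extents came from RefSeq (GRCh38.p14), without 153 genes placed on other scaffolds. Peaks of H3K36me2 and H3K27me3 less than 1 kb apart were joined. Strands, sequences and the starts used for sequence sites came from the RefSeq promoter table. For H3K27ac, the start of a gene was the outermost end of its RefSeq extent. Since each condition has a single list, nothing was tested. The members and gene lists were chosen with earlier results of these data known. Named by rule were all members, flanking genes of at least 2 kb, list members past the limit (at most 4 per direction) and the nearest genes by coverage. Alternatives were other joining distances, stricter peaks, equal covered length, another limit, other end windows and, chosen after seeing the data, other scalings of the H3K27ac elements. The software was SciPy 1.17.1, pandas 2.3.3, numpy 2.4.6 and matplotlib 3.10.9 under Python 3.11.15. The coverage and gene-end calls were tested with peaks added to or removed from copies of the WT lists. The other steps were not tested in this way.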

Additional observations from a re-analysis of the deposited data

How the results depend on the processing

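No paired analysis was possible because each deposited list pools both replicates. The numbers of members called depended on most settings. For H3K36me2 they were 3 in WT against TKO, 2 in D1240A against WT and 3 in F1295A against WT. They became 1, 1 and 1 without joining of peaks, 6 and 6 in the first pair of comparisons with joining within 3 kb, 0 in F1295A with a -log10 q of at least 5, 5, 6 and 1 at equal covered length, and 1, 0 and 1 with a limit of 50 points. For H3K27me3 they were 0, 1 and 3. In D1240A and F1295A they became 0 and 1 without joining, 5 and 5 with joining within 3 kb, 2 and 0 with a -log10 q of at least 5, 0 and 1 at equal covered length, 0 and 1 with a common minimum fold enrichment, and 0 and 0 with a limit of 50 points. For H3K27ac at gene ends they were 0, 1 and 1, and became 0 and 0 in the mutant forms with windows of 2.5 kb, 3 and 4 in WT and D1240A with a -log10 q of at least 5, 3, 4 and 2 at equal covered length, and 3, 3 and 0 with 50% of an end window covered. The shares of all genes moved with the settings too. For H3K36me2 in WT against TKO they were 0.167% higher and 2.47% lower, and 0.408% and 5.15% with joining within 3 kb. Over all settings and comparisons, the highest share in either direction was 5.15% for H3K36me2, 1.18% for H3K27me3 and 3.59% for H3K27ac. Shares in the 1q blocks were not taken for the other settings. FCRL4 H3K36me2 in F1295A, 29.3 points above WT, was -12.7 points with a -log10 q of at least 5 and -3.76 at equal covered length. Among the 5 alternatives that change the lists, the direction of H3K36me2 held in 2 for FCRL2 and FCRL1 in F1295A against WT, in 3 for FCRL5 and FCRL4 in F1295A, FCRL3 in D1240A, FCRLB in both mutant forms and FCRL6 in WT against TKO. FCRLA, 1 of the 2 genes behind the choice of the family, kept its direction in H3K36me2 in all 3 comparisons under all 5, with WT 32.4 to 100 points below TKO, as did FCRL1 in WT against TKO (17.2 to 55.2) and D1240A against WT. For all these changes the cause was not tested. At the H3K27ac elements, with ratios of fold enrichments or division by the median, both chosen after seeing the data, WT over TKO stayed above 1 at all 4 (1.37 to 2.13). Divided by the median, D1240A over WT in FCRL1 (0.643) and F1295A over WT in FCRL5 (0.662) passed the limit of 1 over 1.5. Pileups near the list minimum limit all coverage values.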

Other observations

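All 3 marks were listed on some of the same bases of the run. Over the 306.7 kb from FCRL5 to FCRL1, without joining, H3K36me2 and H3K27me3 peaks shared 10.5% of the bases (TKO), 15.1% (WT), 5.48% (D1240A) and 8.60% (F1295A). H3K27me3 and H3K27ac peaks, which mark the same lysine in opposite states, shared 5.46% (TKO), 5.97% (WT), 2.88% (D1240A) and 2.93% (F1295A). In the same order of conditions, H3K36me2 peaks alone covered 22.3%, 33.3%, 19.8% and 41.6% of these bases. H3K27me3 covered 31.7%, 28.2%, 15.2% and 12.6%, and H3K27ac 12.5%, 17.9%, 14.8% and 14.5%. Shared bases depend on these extents, and sharing beyond them was not tested. Bases under none of the marks made up 52.0% (TKO), 45.6% (WT), 60.9% (D1240A) and 48.5% (F1295A). Over FCRL6 all 3 marks shared 15.1% of the bases in F1295A and 3.97% to 6.45% in the other lists.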
